A study of Rattus norvegicus with 23 samples.

Results

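The sinoatrial node (SA) of the rat was compared with the left atrium (LA) by expression microarray, to ask which genes of pacemaking, innervation, smooth muscle and the cardiac surface differ between these regions. The comparison took 8 of the 23 arrays of the series, the 4 labeled as SA and the 4 labeled as LA, and the other 15 arrays (pulmonary vein, PV, pulmonary artery, PA, and the left and right ventricle, LV and RV) gave levels for orientation. Both groups were total RNA of heart tissue from male Wistar rats aged 8 to 11 weeks, 12 rats in all, with no allele and no treatment named, and every rat had received pentobarbital and heparin before the heart was taken. Tissue of 2 rats went into each SA sample, which was dissected apart from the other regions by its landmarks (superior vena cava, crista terminalis, right atrium and septum), and LA was the part next to PV. Neither group is sorted cells, and no right atrium was used here, so a difference of the node and a difference of the right side of the heart cannot be told apart. No source used here ties an array to an animal, and the p-values below measure the spread between arrays.

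Each array carries 1 color, and a level is the log2 of the normalized signal plus 1, for the brightest probe of a gene. A gene was tested where its probes were well above background on all 4 SA arrays or on all 4 LA arrays, which held for 12165 of 16544 named genes. A gene was called changed at a Benjamini-Hochberg adjusted p below 0.05 in limma, a linear model with a variance pooled across genes. Differences are SA minus LA in log2 units, so 1 unit is a change of 2-fold in signal. Of the genes tested, 2498 (20.5%) were called, 1109 higher (9.12%) and 1389 lower (11.4%) in SA, and the median difference of all tested genes was -0.02. After normexp background correction 59.2% of the calls were higher in SA, against 44.4% here. The count was 4170 genes at an unadjusted p below 0.05, and without SA replicate 3 it was 1656 at the adjusted threshold. Among the called genes named below, none changed sign in any alternative fit, and calls that ended when a single array was left out are pointed out for the genes given with a difference.

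The 8 arrays lay on 3 slides and in 2 rows of arrays on a slide. Row 1 held LA replicates 1, 3 and 4 and SA replicate 2, and row 2 held LA replicate 2 and SA replicates 1, 3 and 4. Arrays of row 2 had fewer probes well above background (60.2% to 64.8%) than arrays of row 1 (76.1% to 79.8%). The means were 73.7% ± 9.01 (SD, n = 4) for LA and 65.4% ± 7.41 (SD, n = 4) for SA, and the difference of -8.3 percentage points did not pass an exact two-sided permutation test (p = 0.2). With array row as a block, 1703 genes (14%) were called, 814 higher (6.69%) and 889 lower (7.31%) in SA, and 1594 of them were called in the same direction without the block. Values within rows and slides are given below beside the lists.

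**Figure D1:**
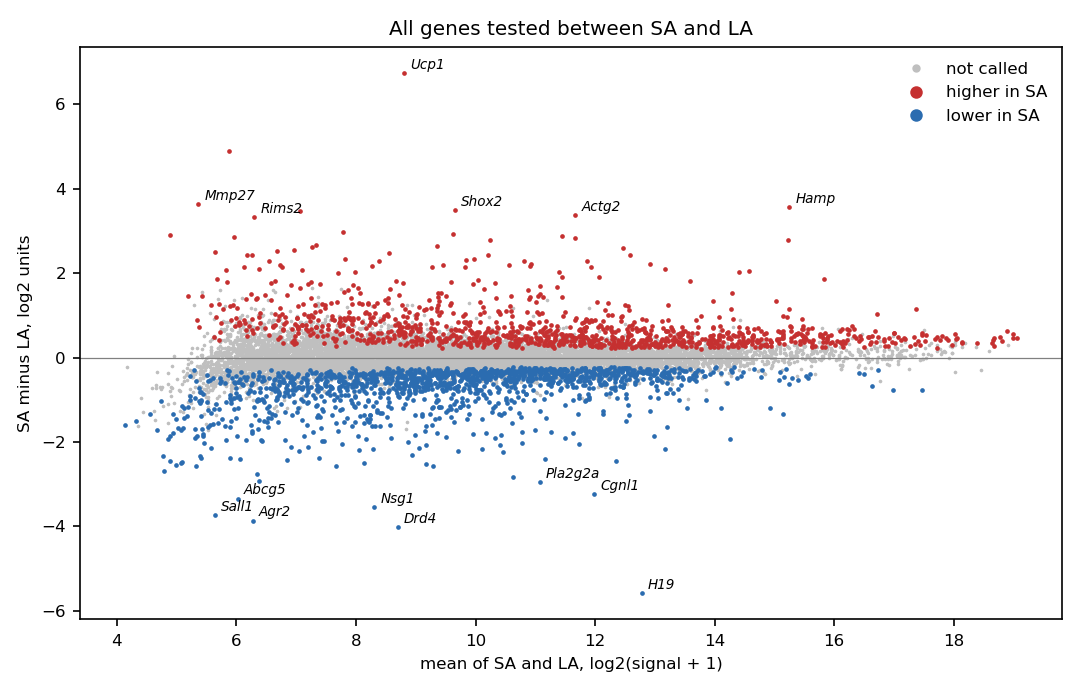
Difference between SA and LA (vertical axis, log2 units) against the mean level of both regions (horizontal axis, log2 of the normalized signal plus 1) for the 12165 genes tested. Red points are the 1109 genes higher in SA, blue points the 1389 lower in SA, and several of the largest differences in each direction are named.

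The sinoatrial node generates the heartbeat. Its myocytes depolarize slowly between beats, through the hyperpolarization-activated HCN channels, through T-type and L-type calcium channels and through calcium released by the sarcoplasmic reticulum, and acetylcholine and noradrenaline from autonomic nerves set the rate. The transcription factors Shox2, Isl1, Tbx3 and Tbx18 build this cell type in the embryo and hold back the program of working atrial muscle, which conducts fast through the connexins Gja5 and Gja1. The node also holds nerve endings, an artery with smooth muscle and connective tissue, while the outer surface of the atria is covered by epicardial mesothelium.

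Of the pacemaker transcription factors, Shox2, Hoxa2 and Tbx3 were higher in SA and Meis1 was lower. Shox2, a homeodomain factor that represses the atrial program, read 8.20, 7.90, 7.99 and 7.52 on LA replicates 1 to 4 and 11.34, 11.55, 11.30 and 11.43 on SA replicates 1 to 4. The SA arrays lay within 0.25 units of each other and all stood above LA, an 11.3-fold difference (3.50, SE 0.14, adjusted p = 2.9e-05). The level of Shox2 in PV was close to that in SA, at 11.03 ± 0.11 (SD, n = 4). Hoxa2, a homeobox factor of hindbrain and neural crest patterning, had levels of 6.99, 6.71, 6.87 and 6.04 in LA and 9.03, 8.93, 8.77 and 9.19 in SA, without overlap (2.33, SE 0.20, adjusted p = 0.00043). In PA, however, its level was 12.07 ± 0.12 (SD, n = 4). Tbx3, a T-box repressor of working muscle genes, gave 9.70, 8.77, 9.45 and 10.19 in LA and 10.64, 10.65, 10.75 and 10.87 in SA, with all SA arrays above all LA arrays (1.20, adjusted p = 0.017). Tbx3 in LV read 10.60 ± 0.16 (SD, n = 4), and in PV 10.09 ± 0.21 (SD, n = 4).

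Not every factor that marks the node was higher there. Tbx18, which forms the head of the node, was 10.69, 10.44, 10.89 and 10.73 in LA and 10.40, 9.74, 10.17 and 10.43 in SA and was not called (-0.50, adjusted p = 0.072). Other limma fits called it lower, with all 23 arrays (adjusted p = 0.039, and 0.044 with array row as a block) and with a trend in the prior variance (adjusted p = 0.049). Isl1, a LIM homeodomain factor of the embryonic venous pole, was well above background on 0 of 4 LA arrays and 1 of 4 SA arrays and was not tested, and its levels of 2.07, 4.52, 2.07 and 2.74 in LA and 3.62, 4.49, 3.46 and 3.56 in SA are given only as read. Its probe read 8.70 ± 0.15 (SD, n = 4) in PA. Meis1, a homeodomain cofactor, was 9.38 ± 0.11 in LA and 8.95 ± 0.05 in SA (SD, each n = 4) (-0.43, adjusted p = 0.0076). Tbx5, Gata6, Bmp4 and Id2 were not called, with differences of 0.12, 0.12, 0.16 and -0.29. In all, of 11 factors 10 had a probe and 9 were tested, 3 were higher (33.3%, against 9.12% of all tested genes) and 1 was lower (11.1%, against 11.4%).

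Channels of the HCN family carry the pacemaker current. Hcn4, the main pacemaker channel of the node, read 7.55, 8.70, 8.72 and 7.82 in LA and 10.58, 10.27, 10.23 and 10.27 in SA, which was 4.4-fold higher in SA (2.14, SE 0.27, adjusted p = 0.0021). LA replicates 2 and 3 stood above LA replicates 1 and 4, whereas the SA arrays stayed between 10.23 and 10.58. Hcn2, the ventricular member of the family, was 4.99 ± 0.98 in LA and 6.39 ± 0.24 in SA (SD, each n = 4), and its groups did not overlap (1.40, adjusted p = 0.058). It was called in some other fits, among them those with array row as a block (1.85, adjusted p = 0.032) and with all 23 arrays (adjusted p = 0.0045). Hcn3 overlapped between the regions (0.70, adjusted p = 0.28). Hcn4 was also present in the ventricles, with LV at 9.52 ± 0.63 (SD, n = 4) and RV at 9.57 ± 0.21 (SD, n = 3).

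Among the calcium channels the regions differed in opposite directions. Cacna1h, the T-type channel Cav3.2, was lower in SA, with 10.96, 11.31, 11.49 and 10.98 in LA and 9.53, 8.91, 8.64 and 9.004 in SA, a 4.48-fold difference without overlap (-2.16, SE 0.20, adjusted p = 0.00055). Its sister Cacna1g, the T-type channel Cav3.1, overlapped between the groups (0.19, adjusted p = 0.54), at 11.50 ± 0.39 in LA and 11.69 ± 0.21 in SA (SD, each n = 4). Cacna1c, the L-type channel of working and nodal cells, was higher in SA by 0.56 (adjusted p = 0.018), a call that was lost with array row as a block (adjusted p = 0.069). Kcnj5, a subunit of the acetylcholine-activated potassium channel, was lower (-0.44, adjusted p = 0.021), and its partner Kcnj3 was not called (-0.13, adjusted p = 0.61). Kcnq1, the slow delayed rectifier, was higher (0.39, adjusted p = 0.03), and Gjc1, the nodal connexin 45, was lower (-0.40, adjusted p = 0.024). The calls of Kcnj5 and Gjc1 ended without any 1 of 3 arrays and that of Kcnq1 without any 1 of 5 (LA replicate 2 and SA replicate 3 for all 3 genes).

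The calcium cycling genes gave small differences. Ryr2, the calcium release channel, differed by 0.23, the exchanger Slc8a1 by -0.06, the calcium pump Atp2a2 by 0.25, its inhibitor Pln by 0.16 and the calcium buffer Casq2 by 0.18, and none of these 5 was called. With array row as a block Atp2a2 was called higher (0.34, adjusted p = 0.047). The remaining members Cacna2d2, Kcnj11, Kcnd2, Kcne1 and Kcnh2 were not called either, with differences from -0.31 (Kcne1) to 0.47 (Kcnd2). Of 24 channel and calcium genes, 21 had a probe and were tested, 4 were higher (19%, against 9.12% of all tested genes) and 3 lower (14.3%, against 11.4%) in SA, and their median difference was 0.23. Of 12 genes that single-cell studies report as enriched in nodal cells, 10 were tested and 3 were higher in SA (against the same 9.12%). These were Smoc2, a matricellular protein (1.12, adjusted p = 0.0028), Vsnl1, a neuronal calcium sensor (0.76, adjusted p = 0.003), and Igfbp5, which binds insulin-like growth factors (0.66, adjusted p = 0.026). Rgs6, Dlx5, Nptx2, Dkk3, Slitrk6, Kcne2 and Myh14 ranged from -0.21 (Dlx5) to 0.36 (Slitrk6) and were not called, and Cpne5 and Ntm were too dim to test. The call of Igfbp5 ended without any 1 of LA replicates 1, 2 and 3 and SA replicates 2 and 3. Bright probes of 1 gene differed in sign for Slc8a1, Atp2a2, Kcnj11, Kcne2 and Dkk3, none of which was called.

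**Figure D2:**
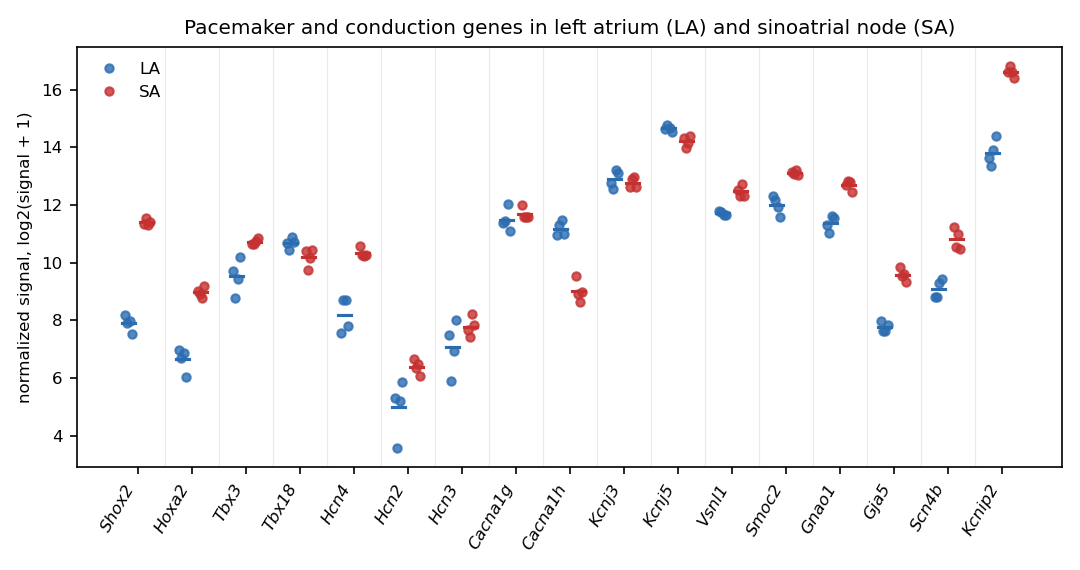
Level of 17 pacemaker and conduction genes (vertical axis, log2 of the normalized signal plus 1) on each of the 4 LA arrays (blue) and the 4 SA arrays (red), with the mean as a bar. Shox2, Hoxa2, Hcn4, Gja5 and Kcnip2 stand higher in SA on every array, and Cacna1h stands lower.

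Autonomic nerves reach the myocytes through muscarinic and adrenergic receptors and G proteins. Of the receptors in the list, Adra1b was the only one called in this fit. Chrm2, the muscarinic receptor of the vagal response, was 11.43 ± 0.19 in LA and 11.33 ± 0.18 in SA (SD, each n = 4) (-0.10, adjusted p = 0.62), and the beta receptor Adrb1 (-0.18) and the adenosine receptor Adora1 (0.06) were not called. Gnao1, the G protein subunit alpha o of neurons and atrial cells, was higher in SA, at 11.30, 11.04, 11.61 and 11.54 in LA and 12.71, 12.82, 12.80 and 12.44 in SA (2.5-fold, 1.32, adjusted p = 0.0012). Gnai2, an inhibitory G protein subunit, was lower (-0.46, adjusted p = 0.0043), and Adra1b was higher by 0.32 (adjusted p = 0.043, and 0.11 with array row as a block), a call that ended without any 1 of 7 arrays. Adra1a, Rgs4, Adcy5, Adcy6, Pde4d and Prkar1a were not called, with differences from -0.44 (Adcy5) to 0.30 (Rgs4), and Adcy6, a cyclase of heart muscle, was called lower with array row as a block (-0.56, adjusted p = 0.026). Bright probes of the same gene differed in sign for Adra1a, Rgs4, Pde4d and Prkar1a. Of 15 genes in the list, 13 were tested, 2 were higher (15.4%) and 1 was lower (7.69%), shares near the 9.12% and 11.4% of all tested genes.

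Genes of fast-conducting atrial muscle were called in both directions. Of 24 such genes, 22 had a probe and 21 were tested, 5 were higher in SA (23.8%, against 9.12% of all tested genes), 1 was lower (4.76%, against 11.4%), and their median difference was -0.02. Gja5, the atrial and vascular connexin 40, read 7.97, 7.62, 7.63 and 7.84 in LA and 9.85, 9.54, 9.61 and 9.32 in SA. All SA arrays were above all LA arrays, 3.52-fold (1.82, SE 0.13, adjusted p = 0.00021), and its level in PA was 11.71 ± 0.38 (SD, n = 4). Scn4b, a sodium channel beta subunit, was higher as well (1.73, adjusted p = 0.0019). Kcnip2, the subunit of the transient outward current with Kcnd2 and Kcnd3, was not in the lists but among the largest differences, at 13.64, 13.35, 13.92 and 14.39 in LA and 16.62, 16.82, 16.63 and 16.40 in SA, 6.94-fold apart (adjusted p = 0.00023). The level of Kcnip2 in LV was 17.61 ± 0.15 (SD, n = 4).

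Most other members of this list were not called. Nppa, the atrial natriuretic peptide, was 18.59 ± 0.21 in LA and 18.31 ± 0.22 in SA (SD, each n = 4) and was not called (-0.29, adjusted p = 0.2), against 15.58 ± 0.83 (SD, n = 4) in LV. The atrial calcium pump inhibitor Sln was not called (-0.34, adjusted p = 0.051), nor was the connexin Gja1 (-0.29, adjusted p = 0.24) or the cardiac factor Nkx2-5 (-0.54, adjusted p = 0.062). The atrial light chain Myl7 (0.47, adjusted p = 0.013) and Mybphl (0.32, adjusted p = 0.038, and 0.13 with array row as a block) were higher in SA, though the call of Mybphl ended without any 1 of 7 arrays. Etv1, a factor of fast conduction tissue, was lower, at 11.79 ± 0.09 in LA and 11.06 ± 0.09 in SA (SD, each n = 4) (-0.73, adjusted p = 0.0011). Nppb, Kcnj12, Kcna5, Kcnk3, Kcnd3, Myl4, Pkp2, Dsc2, Cdh2 and Ank3 were not called, with differences from -0.33 (Cdh2) to 0.23 (Kcna5). Kcnj2, the inward rectifier Kir2.1, was well above background on all LA arrays and on no SA array, which gives LA at least 1.7-fold over SA. The fit gave Kcnj2 an adjusted p of 0.054, and 0.0057 with array row as a block. Bmp10, a growth factor of the right atrium in the adult, was not tested, being well above background on 1 LA array and 2 SA arrays. Bmp10 levels were 3.69, 3.36, 2.81 and 4.45 in LA and 8.45, 7.36, 5.34 and 5.36 in SA.

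Sarcomere genes, the contractile machinery of striated muscle, were mostly close in level. Of 24 genes, 21 were tested, 10 were higher in SA (47.6%, against 9.12% of all tested genes) and 4 lower (19%, against 11.4%), with a median difference of 0.30. Apart from Myl2, the differences of the higher genes were below 1 unit. The heavy chain Myh6 differed by 0.46 (adjusted p = 0.022), the cardiac actin Actc1 by 0.55 (adjusted p = 0.026), tropomyosin Tpm1 by 0.55 (adjusted p = 0.029) and troponin Tnnt2 by 0.42 (adjusted p = 0.028). The ventricular light chain Myl2 was higher in SA (1.33, adjusted p = 0.027), at 14.37 ± 0.75 in LA and 15.70 ± 0.18 in SA (SD, each n = 4), against 19.10 ± 0.14 (SD, n = 4) in LV. Tnni1, the slow skeletal and fetal troponin I, was lower, at 10.48, 11.03, 11.56 and 10.22 in LA and 8.74, 8.45, 8.89 and 8.32 in SA (-2.22, adjusted p = 0.0021). Mybpc1, the slow skeletal myosin binding protein C, was bright enough on all 4 LA arrays but not on any SA array, with LA at least 2.94-fold over SA. The ventricular light chain Myl3 (-0.64) and the M-line protein Myom2 (-0.54) were lower. The calls of Actc1, Tpm1, Tnnt2, Myl2, Myl3 and Myom2 ended without at least 4 of the 8 arrays, each left out alone, and that of Myh6 without SA replicate 2. These counts turn on the scaling, since quantile normalization left none of the 21 genes called higher, with a median difference of 0.02. The count of higher genes was 2 with all 23 arrays in the fit, 3 with no filter on dim genes, 1 with the replicate block and 2 to 7 without 1 array. With array row as a block 5 sarcomere genes stayed called as higher (Tpm1, Actc1, Myl7, Myh6 and Tnni3) and 2 as lower (Mybpc1 and Tnni1), against 6.69% and 7.31% of all tested genes.

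The promoters of 2 sarcomere genes that moved in opposite directions are shown, because muscle genes often carry the CArG box that serum response factor binds. In RefSeq's promoter table (build GRCr8, 250 bases before to 50 bases after each start), 33469 promoters of any gene were searched on both strands for the CArG box. Only the exact form CCWWWWWWGG was searched, where W is A or T, so boxes with a mismatch were not counted. Of single promoters, 1.64% held one. A gene was counted where any of its promoters held the box, which is another unit than the share of single promoters. Of 17 sarcomere genes with a promoter in the table, 4 held one (Acta1, Actc1, Ldb3 and Myl3). Of 15 smooth muscle genes with a promoter none held this exact form within this window. The box begins 2 bases after the start in Actc1 and 97 bases before it in Myl3. The sequences run 5′ to 3′ with the CArG box in capitals. Actc1 is on chr3:121271778-121272077 (minus strand) and was higher in SA, and Myl3 is on chr8:119616844-119617143 (plus strand) and was lower in SA.
Actc1: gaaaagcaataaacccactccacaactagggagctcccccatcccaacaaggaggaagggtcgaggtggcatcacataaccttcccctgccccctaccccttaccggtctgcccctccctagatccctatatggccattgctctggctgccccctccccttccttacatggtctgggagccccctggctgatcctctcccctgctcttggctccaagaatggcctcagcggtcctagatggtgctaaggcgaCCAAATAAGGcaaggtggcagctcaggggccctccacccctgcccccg
Myl3: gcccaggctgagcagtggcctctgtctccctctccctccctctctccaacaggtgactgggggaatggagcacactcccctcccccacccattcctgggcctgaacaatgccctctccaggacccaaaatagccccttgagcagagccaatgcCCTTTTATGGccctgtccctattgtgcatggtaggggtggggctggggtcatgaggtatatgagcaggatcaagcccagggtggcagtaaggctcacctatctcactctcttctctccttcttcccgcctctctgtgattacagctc
A match to these letters is a description of the window and not a measured binding site.

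Some genes of nerve endings were higher in SA. Of 35 genes of autonomic neurons, 32 had a probe and 18 were tested, 4 were higher in SA (22.2%) and none was lower. The background of genes higher in SA was 9.12%. Npy, the neuropeptide of sympathetic terminals, read 7.13, 7.87, 7.03 and 7.22 in LA and 10.47, 9.88, 9.20 and 9.64 in SA. The difference was 5.6-fold without overlap (2.48, SE 0.29, adjusted p = 0.0014). Gap43, a protein of growing axon endings, read 6.89, 6.40, 6.90 and 6.999 in LA and 8.09, 8.10, 8.001 and 8.04 in SA (1.26, SE 0.13, adjusted p = 0.0009). Uchl1, the ubiquitin hydrolase PGP9.5 used to stain nerves, was higher by 1.04 (adjusted p = 0.001), and so was Ddc, which makes dopamine from L-dopa (0.91, adjusted p = 0.0029). These 4 genes were also called with array row as a block. Summed over the 32 genes with a probe, the signal was 8765 to 10636 on LA arrays and 12650 to 17011 on SA arrays, without overlap, while the median difference of the tested members was 0.14.

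Apart from Ddc, the tested genes that make or transport noradrenaline or acetylcholine were not called. Dbh, which makes noradrenaline, was 8.93 ± 0.28 in LA and 9.02 ± 0.11 in SA (SD, each n = 4) (0.09, adjusted p = 0.69). The vesicular transporters Slc18a2 (-0.0026) and Slc18a3 (-0.10) and the noradrenaline transporter Slc6a2 (-0.14) were not called. Slc18a1, Hand2, Ret, Nefl, Nefh, Tubb3, Gal, Vip, Chga and Chrnb4 were not called either, with differences from -0.27 (Chga) to 0.56 (Slc18a1). Bright probes of Ret differed in sign. Another 14 members were not tested. Among these, Chat, which makes acetylcholine, was well above background on 3 LA and 2 SA arrays, the autonomic neuron factor Phox2a on 3 and 1, the ganglionic receptor subunit Chrna3 on 0 and 0, and the neuronal cytoskeleton gene Stmn2 on 3 and 2. The secretory granule genes Scg2 and Chgb were well above background on 2 SA arrays each and on no LA array. Scg2 read 4.33, 5.27, 4.69 and 7.74 on SA replicates 1 to 4, so that replicate 4 stood above the others. In PV, Stmn2 was 9.43 ± 1.31 (SD, n = 4) and Uchl1 11.44 ± 1.26 (SD, n = 4). Th was not analysed here. In bulk tissue, fewer cells of a type and less RNA per cell cannot be told apart.

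Schwann cells wrap the axons, and some of their genes were higher in SA. Of 21 genes, 19 had a probe and 15 were tested, 6 were higher (40%, against 9.12% of all tested genes) and none was lower, and the median difference was 0.49 against -0.02 for all tested genes. L1cam, an adhesion molecule of axons and Schwann cells, was higher by 0.71 (adjusted p = 0.0023), and Gfra3, a receptor for artemin, by 0.97 (adjusted p = 0.0089). Mbp (0.63) and the factor Sox10 (0.49), which were called at adjusted p of 0.016 and 0.041, were not called with array row as a block, under which 3 genes of the list were called higher (against 6.69% of all tested genes). For Mbp a second probe above background differed by -0.30, in the other direction. The call of Sox10 also ended without any 1 array other than LA replicate 1. S100b (0.57, adjusted p = 0.16) and Ngfr (0.40, adjusted p = 0.084) were not called. The median of the list was 0.50 with the block, 0.52 and 0.41 within row 1 and row 2, and between 0.33 and 0.51 within the 3 slides. Summed over the 19 genes with a probe, the signal overlapped, at 11018 to 16664 on LA arrays and 15685 to 16389 on SA arrays.

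Most smooth muscle genes were higher in SA. All 21 genes of the list were tested, 14 were higher (66.7%, against 9.12% of all tested genes) and 1 was lower, with a median difference of 0.86. Among genes well above background on all 8 arrays, 12 of 19 were higher, with a median of 0.84, against 1111 of all 11217 such genes. Actg2, the gamma actin of visceral and vascular muscle, read 10.52, 9.99, 9.99 and 9.43 in LA and 13.09, 12.95, 12.95 and 14.41 in SA, 10.3-fold higher (3.37, SE 0.37, adjusted p = 0.0011). The lowest SA array, at 12.95, was above every LA array. Tagln, the actin-binding protein SM22, read 10.61, 10.13, 10.37 and 9.85 in LA and 12.92, 12.93, 12.86 and 13.60 in SA (2.84, SE 0.21, adjusted p = 0.00023). Myh11, the smooth muscle myosin heavy chain, read 10.92, 10.72, 10.74 and 10.49 in LA and 12.65, 13.000, 12.91 and 13.50 in SA (2.30, SE 0.18, adjusted p = 0.00027). On all 3 genes SA replicate 4 was the highest array and the groups were apart by more than 1 unit.

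The regulators and thin filament genes of smooth muscle followed in part. Tpm2, a tropomyosin, was higher by 2.15 (adjusted p = 0.0015), Cnn1, which is the calponin of differentiated smooth muscle, by 2.86 (adjusted p = 0.0037) and Acta2, the aortic alpha actin, by 1.46 (adjusted p = 0.00048). Cnn1 was well above background on 3 of 4 LA arrays. Its difference was 2.49 with dim LA values set to the lowest signal well above background. Acta2 read 10.30, 10.02, 10.40 and 10.52 in LA and 11.58, 11.77, 11.74 and 12.01 in SA. Kcnmb1, Lmod1, Mcam, Rgs5, Cald1, Mylk, Csrp1 and Des were higher by 0.57 to 1.08. Of these 8, Cald1 and Mylk were not called with array row as a block (adjusted p = 0.064 and 0.073), and the call of Mylk ended without LA replicate 3. Myocd, the coactivator that turns on smooth muscle genes and is also made in the heart muscle, was 10.23 ± 0.06 in LA and 10.15 ± 0.11 in SA (SD, each n = 4) and was not called (-0.08, adjusted p = 0.53). Pgm5, a protein of adhesion plaques, was lower (-0.51, adjusted p = 0.015), and Smtn, Synpo2, Myl9, Itga8 and Notch3 were not called. The summed signal of the list lay between 91845 and 111644 on LA arrays and between 162520 and 211943 on SA arrays. With the block 12 genes were called higher and none lower (background 6.69% and 7.31%). With the block the median difference was 0.89, within row 1 and row 2 it was 0.92 and 0.97, and within the slides it was between 0.87 and 1.07. For orientation, the Myh11 level was 13.95 ± 0.33 (SD, n = 4) in PV and 17.50 ± 0.22 (SD, n = 4) in PA, both above SA, and 10.76 ± 0.48 (SD, n = 4) in LV.

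Most mesothelial genes were lower in SA. Of 22 genes of the cardiac surface, 20 had a probe and 18 were tested, none was higher and 14 were lower in SA (77.8%, against 11.4% of all tested genes), with a median difference of -1.33. Among genes well above background on all 8 arrays, 12 of 16 were lower, with a median of -1.19, against 1321 of all 11217 such genes. Msln, the surface protein mesothelin, read 13.91, 14.18, 14.17 and 13.85 in LA and 12.84, 11.89, 12.28 and 12.49 in SA (-1.65, SE 0.20, adjusted p = 0.0015). Upk1b, a uroplakin of mesothelium, read 12.77, 12.85, 12.77 and 12.64 in LA and 11.19, 10.27, 10.63 and 10.76 in SA (-2.05, SE 0.18, adjusted p = 0.00041). LA arrays stayed within 0.21 units of each other, and no SA array reached them.

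The keratins of the simple epithelium were lower together. Krt18 read 10.32, 10.83, 10.86 and 10.26 in LA and 8.82, 7.77, 7.52 and 7.89 in SA, 5.92-fold apart (adjusted p = 0.0013). Krt19 differed by -2.15 (adjusted p = 0.003) and Krt8 by -1.97 (adjusted p = 0.018). Krt7 was well above background on 4 LA arrays and 1 SA array and differed by -2.91 (adjusted p = 0.00064). The epicardial factor Wt1, needed to form the epicardium, was 8.84, 9.19, 8.75 and 8.88 in LA and 7.84, 7.30, 7.58 and 7.53 in SA (-1.35, adjusted p = 0.00081), and Tcf21, a factor of epicardium and fibroblasts, differed by -1.05 (adjusted p = 0.04, and 0.057 with array row as a block). Aldh1a2, which makes retinoic acid, differed by -1.07 (adjusted p = 0.023), Gpm6a by -2.05, Bnc1 by -1.66, Pkhd1l1 by -1.30, Lrrn4 by -1.06 and Rspo1 by -0.43. The call of Krt8 ended without SA replicate 3, those of Tcf21 and Aldh1a2 without any 1 of 5 arrays, and that of Rspo1 without any 1 of 7. Calb2, Cldn15, Prg4 and Slpi were not called. Another bright probe of Cldn15 differed by -1.76, against -0.05 for the probe used, and bright probes of Slpi differed in sign. The summed signal of the list was 53588 to 62477 on LA arrays and 31154 to 41144 on SA arrays, without overlap. With the block 12 genes were called lower (against 7.31% of all tested genes) and none higher. The median was -1.50 with the block, -1.51 and -1.46 within the rows, and between -1.43 and -1.22 within the slides. In PV, Msln was 12.23 ± 0.70 (SD, n = 4) and Krt18 8.05 ± 0.59 (SD, n = 4), and Wt1 was 9.02 ± 0.40 (SD, n = 4) in LV.

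**Figure D3:**
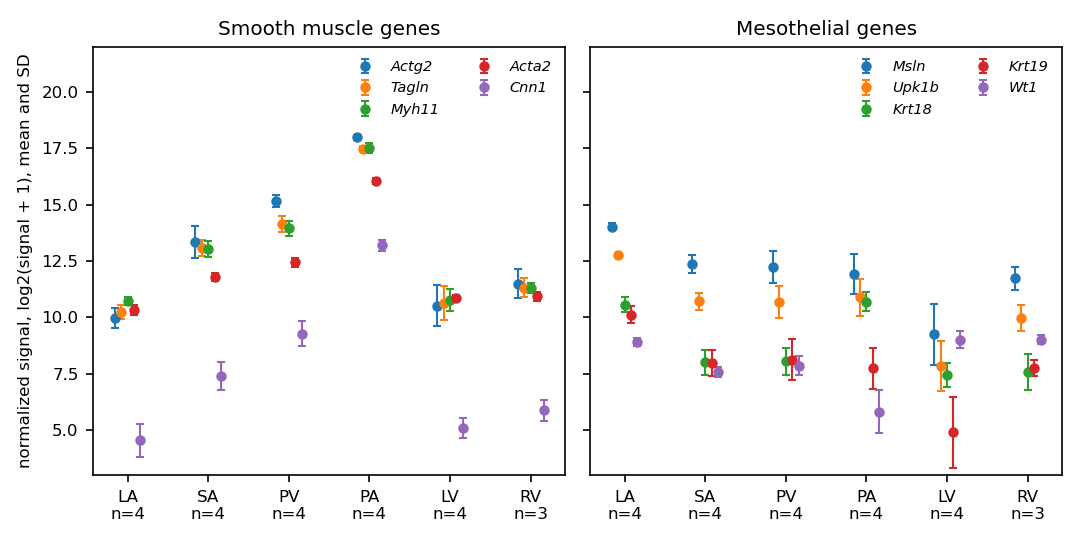
Mean and SD of 5 smooth muscle genes (left panel) and 5 mesothelial genes (right panel) in the 6 regions (horizontal axis, number of arrays below each name), as the log2 of the normalized signal plus 1. Smooth muscle genes lie higher in SA than in LA and highest in PA, and the 5 mesothelial genes lie higher in LA than in SA.

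Lists for other tissues and cells that a cut of SA or LA could hold were read from the same fit. Lymphatic endothelial genes were lower in SA, 4 of 6 tested (66.7%, against 11.4% of all tested genes), with a median of -1.05. These were Ccl21, a chemokine that draws T cells (-2.83, adjusted p = 0.019), Pdpn, which mesothelium also makes (-1.44, adjusted p = 0.00033), the hyaluronan receptor Lyve1 (-1.35, adjusted p = 0.0018) and Reln (-0.75, adjusted p = 0.044), while Prox1, the defining factor of the lineage that cardiac muscle also expresses, was not called (-0.12). Of 15 endothelial genes tested, Plvap (-1.28, adjusted p = 0.0076), the receptor Tek (-0.95, adjusted p = 0.011) and Nfatc1 (-0.46) were lower (20%, against 11.4% of all tested genes), Flt1 was higher (0.37, 6.67% of the list against 9.12%), and Pecam1 was not called (-0.56, adjusted p = 0.068). Of 21 fibroblast and matrix genes tested, Thbs4 (2.30, adjusted p = 0.016), Postn (2.10, adjusted p = 0.00036) and Col1a1 (0.92, adjusted p = 0.027) were higher, and the proteoglycan Vcan (-1.38, adjusted p = 0.002) and the receptor Pdgfra (-0.996, adjusted p = 0.023) were lower. These shares of 14.3% and 9.52% are near the 9.12% and 11.4% of all tested genes. Nfatc1, Flt1, Thbs4, Col1a1 and Pdgfra were not called with array row as a block. The calls of Ccl21 and Nfatc1 ended without LA replicate 2 or SA replicate 3, those of Col1a1 and Pdgfra without any 1 of 4 arrays, and those of Reln and Flt1 without any 1 of 7. The cartilage link protein Hapln1 was well above background on none of the SA arrays, so LA was at least 3.33-fold higher, and it was the only cartilage gene called of 5 tested (20%, against 11.4% of all tested genes). Of 13 macrophage genes tested, 1 was called in each direction (Itgam 0.43, Adgre1 -0.64), shares of 7.69% that are near the 9.12% and 11.4% of all tested genes, and neither was called with array row as a block. Of 4 mast cell genes tested (50% higher and 25% lower, against 9.12% and 11.4%), the proteases Cma1 (1.60, adjusted p = 0.0045) and Tpsab1 (1.28, adjusted p = 0.0028) were higher and Kit was lower (-0.48, adjusted p = 0.038, and 0.056 with array row as a block). The calls of Kit, Itgam and Adgre1 ended without any 1 of 7, 6 and 2 arrays.

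Of the fat genes 4 of 17 tested were higher in SA (23.5%), and of the red cell genes 6 of 8 (75%), of which 5 are globins, against 9.12% of all tested genes. Among genes well above background on all 8 arrays, 2 of 13 fat genes were higher, since Ucp1 and Slc36a2 were tested through their SA signal. Ucp1, the uncoupling protein of brown fat, had the largest difference of all genes tested, at 3.86, 5.44, 7.35 and 5.10 in LA and 11.49, 13.60, 11.15 and 12.46 in SA, 107-fold, with 2 of 4 LA arrays well above background (6.74, SE 0.78, adjusted p = 0.0014). Slc36a2, an amino acid transporter of brown fat, was well above background on none of the LA arrays, so SA was at least 5.46-fold higher. Adipoq, the fat cell hormone adiponectin, was higher by 1.78 (adjusted p = 0.03, and 0.1 with array row as a block) and the fat cell factor Pparg by 0.61 (adjusted p = 0.014). The call of Adipoq ended without any 1 of 5 arrays. The other 13 of the 17 adipocyte genes tested were not called, Cidea for example at 13.22 ± 0.17 in LA and 13.20 ± 0.27 in SA (SD, each n = 4). Of these, Cox8b was called higher with array row as a block (0.41, adjusted p = 0.04). The 5 globin genes, near copies that these probes may not separate, were higher in SA by 1.86 (Hba-a1) to 2.34 (Hbb), and Alas2, the first enzyme of heme synthesis in red cells, by 0.98 (adjusted p = 0.0058). The red cell gene Slc4a1 (0.39, adjusted p = 0.08) and the alpha globin chaperone Ahsp (-0.62, adjusted p = 0.16) were not called. The summed red cell signal was 36451 to 62701 on LA arrays and 110073 to 207742 on SA arrays, and the summed fat signal 240706 to 292858 and 307148 to 359059. In the methods the hearts were perfused to wash out blood and fat was trimmed off, and the part of fat or blood in the differences above was not tested. Of 8 lung epithelial genes 3 were tested, and Napsa was higher by 0.42 (adjusted p = 0.015), which is 33.3% against 9.12% of all tested genes. Of 21 immediate early and heat shock genes tested, Atf3 (1.29, adjusted p = 0.0061) and Nr4a3 (0.83, adjusted p = 0.0076) were higher, a share of 9.52% that is near the 9.12% of all tested genes. The chaperone gene Hsph1 was called lower with array row as a block (-0.38, adjusted p = 0.039) and not without it (-0.30, adjusted p = 0.056).

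**Figure D4:**
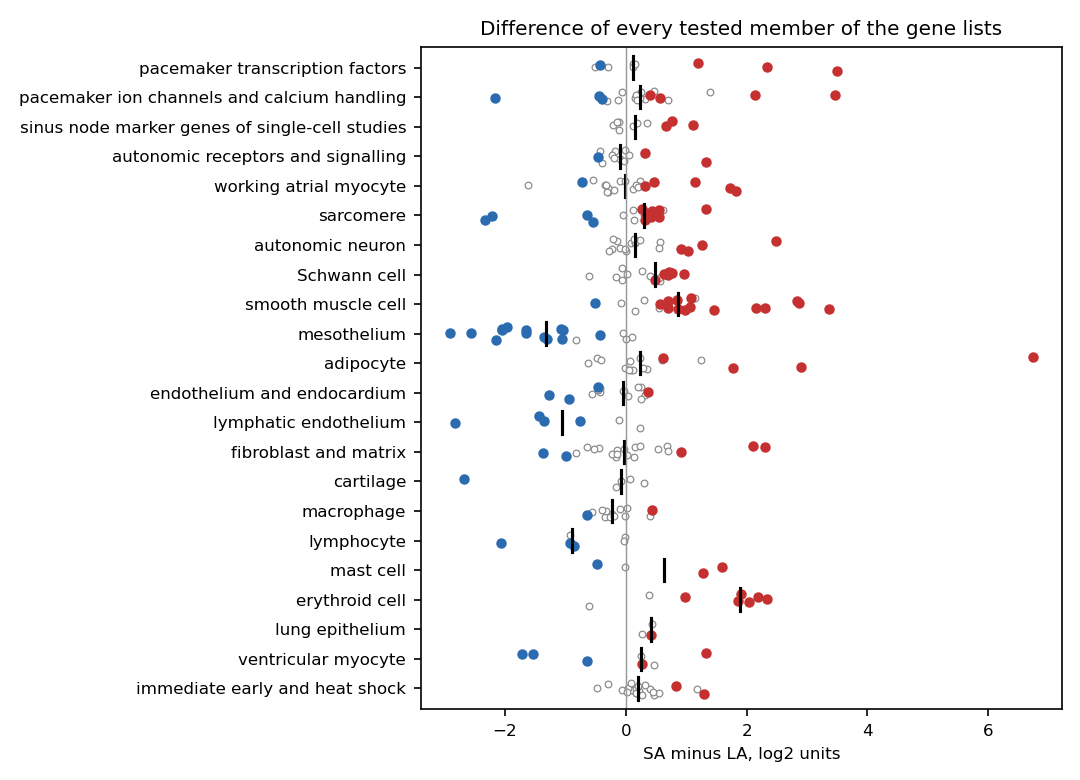
Difference between SA and LA (horizontal axis, log2 units) of every tested member of 22 gene lists. Red and blue points are genes called higher and lower in SA, open points were not called, and the black bar is the median of the list. The smooth muscle bar is at 0.86 and the mesothelium bar at -1.33.

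Of 13 lymphocyte genes, 11 had a probe and 6 were tested, none was higher and 3 were lower in SA (50%, against 11.4% of all tested genes). With array row as a block 1 was lower (against 7.31% of all tested genes). Nkg7, a granule protein of natural killer and cytotoxic T cells, read 10.25, 10.25, 10.03 and 10.26 in LA and 8.53, 8.24, 7.88 and 7.89 in SA (-2.06, SE 0.15, adjusted p = 0.00023). The T cell receptor chain Cd3g differed by -0.87 (adjusted p = 0.041) and granzyme Gzmb by -0.92 (adjusted p = 0.036), and neither was called with array row as a block or without any 1 of 7 arrays (Cd3g) and 5 arrays (Gzmb). Another chain, Cd3d, was not called (-0.01, adjusted p = 0.95). Klre1, a receptor of natural killer cells, was well above background on 1 SA array, and it differed by -2.56 as read (adjusted p = 0.00057) and by -1.92 with dim SA arrays set to the lowest signal well above background. Genes of the same cells outside the list, chosen after their values were seen, were Gzmc (-2.53, adjusted p = 0.00013), Ccl5 (-2.39, adjusted p = 0.00068), Cd7 (-2.18, adjusted p = 0.00036), Prf1 (-1.75, adjusted p = 0.012) and Klrd1, which was well above background on no SA array and at least 3.18-fold higher in LA. Their levels in LV were above LA, 12.33 ± 0.09 (SD, n = 4) for Nkg7 and 12.51 ± 0.28 (SD, n = 4) for Gzmc. Gzma was not called (-0.40, adjusted p = 0.24).

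The 15 largest differences in each direction, among called genes without overlap whose higher region was bright on all 4 of its arrays, were taken from 1069 genes higher and 1341 lower in SA. Beside Ucp1, Shox2, Actg2, Slc36a2, Cnn1, Tagln and Kcnip2, the higher ones included Mmp27, Hamp, Rims2, Tex26, Scd and Mt2A. Hamp, the iron hormone hepcidin, read 13.64, 12.99, 13.53 and 13.73 in LA and 17.27, 16.67, 17.01 and 17.17 in SA, a bright signal 11.8-fold higher in SA (adjusted p = 0.0001). Rims2, which organizes vesicle release at presynaptic sites and was well above background on 2 LA arrays, read 5.35, 4.07, 4.76 and 4.34 in LA and 7.94, 7.84, 8.28 and 7.79 in SA (3.33, adjusted p = 0.00028). With dim LA arrays set to the lowest signal well above background, the difference of Rims2 was 3.11. Mmp27, a matrix metalloproteinase, was well above background on none of the LA arrays, so SA was at least 9.24-fold higher. The fatty acid desaturase Scd (2.92, adjusted p = 0.011), the metallothionein Mt2A (2.88, adjusted p = 0.00014) and Tex26 (2.98, adjusted p = 0.0055) were also among them. Scd was 13.17 ± 0.30 (SD, n = 4) in PA and Hamp 16.77 ± 0.19 (SD, n = 4) in PV.

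The genes with the largest excess in LA were, by the signals as read, H19, Drd4, Agr2, Sall1, Nsg1, Abcg5, Cgnl1, Pla2g2a, Krt7, Ccl21, Cdh11, Hapln1, Fgg, Krt18 and Klre1. H19, a noncoding RNA of an imprinted locus, read 15.83, 16.87, 15.02 and 14.57 in LA and 11.03, 9.55, 9.49 and 9.89 in SA, 47.8-fold lower in SA (-5.58, SE 0.54, adjusted p = 0.00062). Its neighbor Igf2, a fetal growth factor named here after its value was seen, was lower as well, with 13.24, 14.51, 13.53 and 13.02 in LA and 11.24, 11.21, 10.77 and 11.31 in SA (-2.45, adjusted p = 0.002). Meg3, the noncoding RNA of another imprinted locus and likewise named after its value was seen, went the other way, with 11.14, 11.17, 11.50 and 11.67 in LA and 13.45, 13.48, 14.76 and 13.53 in SA (2.44, adjusted p = 0.0019). Drd4, a dopamine receptor, read 10.86, 10.05, 10.52 and 11.40 in LA and 8.32, 7.32, 6.03 and 5.08 in SA (-4.02, adjusted p = 0.0055), and the SA arrays spread over 3.24 units. Nsg1, a protein of neuronal endosomes, differed by -3.55 (SE 0.17, adjusted p = 5.5e-05). Cgnl1, a protein of epithelial tight junctions, differed by -3.23 (adjusted p = 0.00023), the secreted phospholipase Pla2g2a by -2.95 (adjusted p = 0.00049), and the sterol transporter Abcg5 by -3.34 (adjusted p = 0.00012). Agr2 (-3.86), Sall1 (-3.74), Cdh11 (-2.76) and the fibrinogen chain Fgg (-2.58) were called too, and Agr2, Sall1, Abcg5 and Cdh11 were well above background on 1 SA array each. With dim SA arrays set to the lowest signal well above background, the differences were -3.41 for Agr2, -2.83 for Sall1, -2.99 for Abcg5 and -2.76 for Cdh11, so the order among such genes depends on signals near background.

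**Figure D5:**
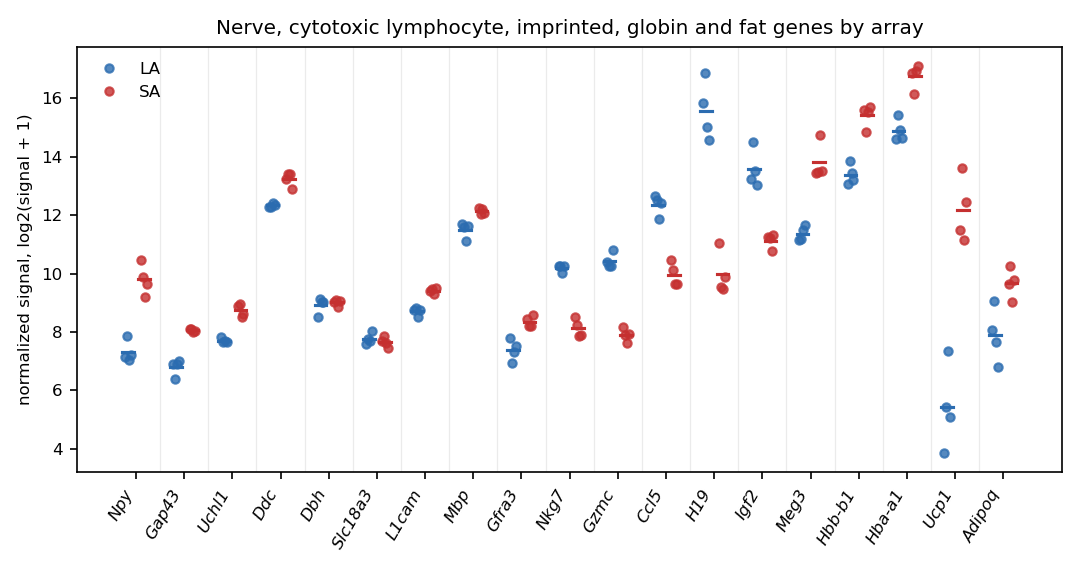
Level of 19 genes of nerves, Schwann cells, cytotoxic lymphocytes, imprinted loci, red cells and fat (vertical axis, log2 of the normalized signal plus 1) on each LA array (blue) and SA array (red), with the mean as a bar. Npy, Gap43, Meg3, Hbb-b1 and Ucp1 stand higher in SA on every array, Nkg7, Gzmc, Ccl5, H19 and Igf2 stand lower, and Dbh and Slc18a3 overlap.

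Irx4 and Irx5, both homeobox factors known from the ventricle, were lower in SA than in LA. Irx4 was well above background on all LA arrays and on no SA array, with LA at least 1.92-fold over SA, and read 12.44 ± 0.12 (SD, n = 4) in LV. Irx5, of the same family, read 8.53, 8.81, 8.30 and 8.61 in LA and 7.09, 7.02, 7.11 and 6.89 in SA (-1.54, SE 0.12, adjusted p = 0.00023) and 11.77 ± 0.43 (SD, n = 4) in LV. Of the 7 ventricular genes tested, Irx4, Irx5 and Myl3 were lower in SA (42.9%, against 11.4% of all tested genes) and Myl2 and Mybpc3 were higher (28.6%, against 9.12%). The calls of Myl2, Myl3 and Mybpc3 were lost with array row as a block, which left Irx4 and Irx5 (against 7.31% of all tested genes lower).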

How the data were processed

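Expression was measured on 23 one-color Agilent arrays (LA 4, LV 4, PA 4, PV 4, RV 3 and SA 4). The authors extracted signals with Agilent Feature Extraction 11.0.1.1, which subtracted background and detrended each array, and deposited normalized intensity values scaled to a common 90th percentile. Marks for spots well above background came from the deposited scanner files, where no spot of the arrays was marked as saturated. Arrays hold no counts, so the number of arrays limits the precision.

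Of 45596 probes, 156 with a missing value were dropped, and 21047 were named through accessions in RefSeq (GRCr8), which gave 16544 genes (3638 had several probes). The 24393 probes without a symbol entered only as an alternative. The highest probe of a gene on each array was used as log2(intensity + 1). The 4 SA and 4 LA arrays were fitted in limma 3.58.1 (R 4.3.3, Benjamini-Hochberg adjustment), and the scripts were tested on simulated data. Python 3.11.15, pandas 2.3.3, scipy 1.17.1 and matplotlib 3.10.9 did the rest. A bound written as at least N-fold sets the mean of the bright region against, for each dim array, the higher of the probe's own value and the lowest signal well above background on that array.

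The gene lists were chosen with earlier results of these data known. Named genes were the members of the pacemaker lists, up to 5 members per direction of other lists, and the 15 largest called differences in each direction without overlap, and the text says where a gene was chosen after its value was seen. Some genes that the rule names are not reported here. Alternatives covered signal source, scaling, background correction, filters, probe choice, pseudocount, arrays in the fit, slide, array row, replicate number, prior variance, an unmoderated analysis of variance of the same 8 arrays and leaving out each array.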

Additional observations from a re-analysis of the deposited data

Results flagged for a closer look

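Among the named genes, 343 groups of 4 arrays were checked for an array far from the other 3, and in 19 groups (5.54%) the gap to the nearest array, as a share of the whole range, was above Dixon's critical value. Chance alone gives about 1 in 20 groups (5%). No cause of these gaps was tested. LA replicate 1 stood apart from the other 3 LA arrays for Slc18a1 (7.37, the others between 8.01 and 8.11, gap 0.871), Ngfr (6.47, the others between 6.04 and 6.08, gap 0.91), Prox1 (14.26, the others between 14.12 and 14.13, gap 0.948) and Cma1 (7.86, the others between 6.78 and 6.85, gap 0.93). LA replicate 3 stood apart from the other 3 LA arrays for Mbp (11.10, the others between 11.60 and 11.69, gap 0.856) and Nkg7 (10.03, the others between 10.25 and 10.26, gap 0.962). SA replicate 1 stood apart from the other 3 SA arrays for Hcn4 (10.58, the others between 10.23 and 10.27, gap 0.866), Cacna1g (12.01, the others between 11.58 and 11.60, gap 0.951), Pln (16.72, the others between 16.43 and 16.46, gap 0.926) and Chrm2 (11.05, the others between 11.40 and 11.45, gap 0.859). SA replicate 2 stood apart from the other 3 SA arrays for Isl1 (4.49, the others between 3.46 and 3.62, gap 0.843), Myl7 (19.47, the others between 19.22 and 19.26, gap 0.845) and Tnnt2 (18.98, the others between 18.81 and 18.84, gap 0.861). SA replicate 3 stood apart from the other 3 SA arrays for Postn (6.94, the others between 7.53 and 7.62, gap 0.865) and Meg3 (14.76, the others between 13.45 and 13.53, gap 0.943). SA replicate 4 stood apart from the other 3 SA arrays for Adora1 (6.64, the others between 7.25 and 7.37, gap 0.835), Actg2 (14.41, the others between 12.95 and 13.09, gap 0.904), Tagln (13.60, the others between 12.86 and 12.93, gap 0.912) and Scd (10.40, the others between 11.22 and 11.37, gap 0.842). In the 11 of these genes that were called, the LA and SA arrays did not overlap, as in 2410 of all 2498 called genes.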

How the results depend on the processing

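The count of 2498 called genes lay between 2005 and 3414 under another scaling, background correction, brightness filter, probe choice, inclusion of probes without a symbol, pseudocount, prior, set of arrays, slide block or an unmoderated analysis of variance, and was 1812 with no filter on dim genes. Array row as a block gave 1703 genes, with 889 lower in SA. After normexp background correction 844 genes were lower and 1227 higher, so that 59.2% of the calls were higher in SA against 44.4% without it, and the median difference of all genes was 0.06 against -0.02. Leaving out 1 array gave 1656 to 2461 called genes (726 to 1167 of them higher), and the lowest counts were without SA replicate 3. Whether replicate numbers pair the arrays by animal is not known. The deviations of same-numbered LA and SA arrays correlated at -0.22, 0.12, -0.09 and -0.18. The arrays of every such pair lay in different array rows, which differ in detection, so these values cannot decide it. With the replicate block 1189 genes were called, 524 higher and 665 lower. The highest count, 3414, was with the probes without a symbol included, and 2809 was the highest over named genes. The cause of these shifts was not tested.

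The list counts moved as follows. Pacemaker genes higher in SA numbered 10 (7 with the replicate block, 8 to 12 without 1 array), smooth muscle genes 14 (10 and 13 to 15), neuron genes 4 (4 and 4) and mesothelial genes lower in SA 14 (10 and 10 to 15). In the same order, these are counts of 40, 21, 18 and 18 tested genes. With the replicate block 524 of all 12165 tested genes were higher and 665 lower. Schwann cell genes higher in SA fell from 6 to 3 with array row as a block (8 or 23 arrays), with the replicate block and with all 23 arrays in the fit. Sarcomere genes higher in SA fell from 10 to 0 with quantile normalization, 1 with the replicate block, 2 with all 23 arrays, 3 with no filter and 2 to 7 without 1 array, and lymphocyte genes lower in SA from 3 to 1 after normexp correction, with array row as a block, with the replicate block and in the unmoderated analysis of variance (1 to 3 without 1 array). Working atrial genes higher in SA fell from 5 to 3 with quantile normalization, the replicate block and all 23 arrays, lymphatic genes lower in SA from 4 to 2 with the replicate block (2 to 4 without 1 array), and fat genes higher in SA from 4 to 2 with a filter on all 8 arrays.

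Of 121 called genes named, none changed sign under an alternative, 45 lost the call under at least 1, 25 of them with array row as a block and 35 with the replicate block. Sign changes were limited to 16 uncalled genes. Under quantile normalization Atp2a2 was -0.016, Pln -0.0397, Casq2 -0.0283 and Cd3d 0.0107. After normexp correction Dlx5 was 0.0658, Slc18a2 0.191, Slc18a3 0.0359, Slc6a2 0.148, Chga 0.0342, Cidea 0.00386 and Cd3d 0.0603. With equal 75th percentiles Slc18a2 was 0.0111 and Cd3d 0.0326, and with scanner signals at equal 90th percentiles Cd3d was 0.01996. With array row as a block Kcnj3 was 0.0244, Slc8a1 0.0103 and Slc18a2 0.105, and in the fit of 23 arrays with that block Dbh was -0.0825, Slc18a2 0.017 and Cd3d 0.00308. With slide as a block Adora1 was -0.0808 and Cidea 0.0255. Without 1 array the range was -0.0382 to 0.352 for Tbx5, -0.319 to 0.00959 for Adrb1, -0.0927 to 0.229 for Adora1, -0.0447 to 0.16 for Dbh, -0.0762 to 0.0395 for Slc18a2, -0.288 to 0.0153 for Slc6a2, -0.133 to 0.061 for Cidea and -0.0971 to 0.0775 for Cd3d. Dim probes limit the rest, since 4379 of 16544 named genes were not bright enough on all arrays of either region to be tested.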
